A study of Rattus norvegicus with 6 samples.

Results

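The genes of potassium, sodium and calcium channels were described in cultured precursor cells of the newborn rat. The genes were chosen by symbol alone: those starting with Kcn, those of the form Scn plus a number plus a or b, and those starting with Cacna1, Cacna2d, Cacnb or Cacng. On the arrays 122 of 18166 genes met this rule, 87 potassium, 11 sodium and 24 calcium channel genes. The rule uses names, so it also takes in auxiliary subunits and Kcnrg, which is no channel but, in human cells, hinders the assembly of voltage-gated potassium channels. Other genes with such names were not analysed here.

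RNA came from 3 NSCP cultures and 3 SKP cultures, which the series' design text calls independent isolates. NSCPs are nerve-derived Schwann cell precursors from the sciatic nerve, grown on laminin and poly-D-lysine with neuregulin-1β at 25 ng/ml and forskolin at 5 μM. SKPs are skin-derived precursors from the back skin, grown as spheres with FGF2 at 40 ng/ml and EGF at 20 ng/ml. All animals were newborn wild-type Sprague-Dawley rats. Since tissue, medium and growth form all differ, their parts cannot be told apart. Scan dates are not among the labels. Across all genes, arrays of the same group correlated at 0.984 to 0.993 and arrays of different groups at 0.872 to 0.888.

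Ion channels let a chosen ion cross the membrane. Potassium channels set the resting potential and end electrical signals, sodium channels start action potentials, and calcium channels couple depolarisation to secretion, contraction and gene expression. Each pore is built or modulated with auxiliary subunits. Schwann cells do not usually fire action potentials, but they carry potassium channels that take up the potassium released by active axons, and dividing Schwann cells are known for voltage-gated potassium currents.

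Values are log2 expression values from the authors' RMA processing. A gene is called higher or lower in NSCPs when limma's adjusted p was under 0.05, with Benjamini-Hochberg adjustment over all 18166 genes. Each difference is the NSCP mean less the SKP mean, in log2 units, with its standard error (SE) from limma; each level is a mean with its SD, n = 3 arrays. The table holds no detection calls, so olfactory receptor genes, which these cells are not known to use, served as background. Among 67 such genes, the 95th percentile of the 6-array mean was 5.80, and a group with a mean at or under this line is described as within background. The size of a difference in which a group is within background depends on that background level. The symbol Olr1 was left out of the background genes after its values were seen, because it stands for LOX-1, the receptor of oxidised LDL. It lay at 3.94 ± 0.23 in NSCPs and 9.27 ± 0.68 in SKPs (SD, 3 arrays each).

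The markers of the labelled cells were as follows. All 7 measured Schwann cell markers were higher in NSCPs, where their mean lay between 10.84 and 10.91, against 7.03 to 7.32 in SKPs. All 8 fibroblast markers were lower in NSCPs, with means of 6.79 to 7.15 against 11.95 to 12.08 in SKPs. Of these, Col1a1, Col1a2 and Col3a1 were still high in NSCPs, at 11.80, 11.85 and 10.69. The NSCP means of the other 5 were within the background. All 9 leukocyte markers, Ptprc and Lyz2 among them, were lower in NSCPs, with means of 4.89 to 5.11 in NSCPs and 10.12 to 11.14 in SKPs. Of 8 neuron markers Nefm and Tubb3 were higher in NSCPs, and Stmn2 (-0.71) and Elavl4 (-1.30) were lower with both group means within background, where Snap25, Syt1 and Prph also lay. Rbfox3 was not called and lay above background in both groups, at 6.16 in NSCPs and 5.94 in SKPs. In whole cultures, fewer cells of a type and less RNA per cell cannot be told apart. The part of the cells that carry leukocyte or fibroblast markers in the results below was not tested. Of 4 smooth muscle and pericyte markers 1 was lower in NSCPs.

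Most channel genes lay near background. In NSCPs 39 of the 122 channel genes were above it, 32% of them, while 58.9% of all genes were above it. In SKPs 40 channel genes were above it, 32.8% of them, against 60.5% of all genes. In both groups 23 were above it, in NSCPs alone 16, in SKPs alone 17, in at least 1 group 56 and in neither 66. Of all genes 64.9% were above it in at least 1 group and 35.1% in neither. These counts depend on where the line is drawn: above the highest olfactory receptor mean, 6.92, lay 13 channel genes in NSCPs and 24 in SKPs. With Olr1 counted among the background genes, the line lay at 6.22, with 20 channel genes above it in NSCPs and 31 in SKPs. The share of all genes above these other lines is not given here. Close to the line of 5.80 were Kcng2 and Kcne5 just below, by 0.02 and 0.05 in the group where each was higher, and Kcnj9 and Kcnab3 just above, by 0.07 and 0.08.

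Of the 122 channel genes 57 were called in either direction, 46.7%, against 43.7% of all genes, a share near that of all genes. In NSCPs 23 were higher, where 25.2% of all genes were, and 34 were lower, where 18.6% of all genes were. The share called higher was thus smaller than among all genes, and the share called lower larger. At least 2-fold differences were called for 9 higher and 22 lower of the 122, against 7.45% and 9.98% of all genes. Here the higher share was close to that of all genes and the lower share larger. Of the 122 channel genes 16 (13.1%) were called with neither group mean above background, against 6.36% of all genes. The median difference over the channel genes was 0.05, against 0.14 over all genes. NSCP and SKP arrays were fully separate for 64 of the 122 genes, 52.5%, against 56.6% of all genes. Potassium channel genes had 14 higher and 21 lower among 87 (40.2% called). Sodium channel genes had 4 and 4 among 11 (72.7%), and calcium channel genes 5 and 9 among 24 (58.3%). The counts by family below are to be read against the 43.7% called among all genes. They include the 16 genes called with neither group mean above background.

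**Figure D1:**
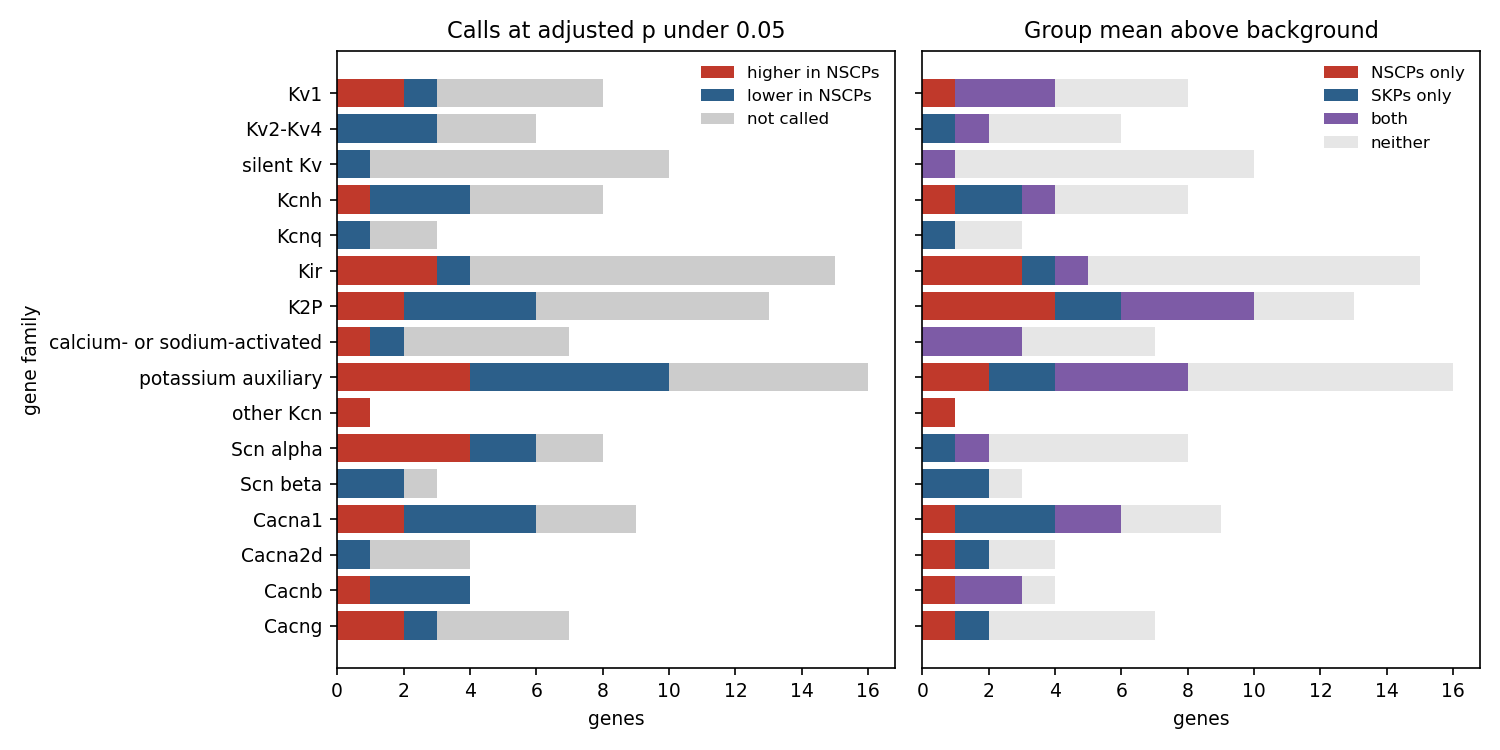
Number of genes (x axes) in each family (y axis): the left panel counts genes called higher in NSCPs, lower in NSCPs or not called at adjusted p under 0.05, and the right panel counts genes whose group mean was above background in NSCPs alone, SKPs alone, both or neither. The 10 silent Kv genes had 1 call, while all 4 Cacnb genes were called, against 43.7% of all genes.

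A few channel genes made a clear profile of the nerve-derived cells. Scn7a encodes Nax, a sodium channel subunit that responds to the sodium concentration outside the cell rather than to voltage and is known from glia. It lay at 12.46, 12.01 and 12.46 in NSCPs, against 7.97, 6.80 and 7.39 in SKPs. It was above background in both groups, with no overlap between them. The difference of 4.92 (SE 0.28, adjusted p = 1.96e-06 by limma) is 30.4-fold. Kcnj10 encodes Kir4.1, the inward rectifier by which glia buffer potassium. Its NSCP values were 9.37, 9.67 and 9.70, against SKP values of 4.89, 5.11 and 5.15. The SKP arrays were within background and tight, and the difference was 4.53 (SE 0.14, adjusted p = 8.16e-08 by limma). Cacng4 encodes a small membrane protein of the calcium channel gamma family that is best known as an auxiliary subunit of AMPA receptors. It was at 8.85, 9.34 and 8.95 in NSCPs, against 5.95, 5.62 and 5.74 in SKPs, a difference of 3.28 (SE 0.16) with no overlap.

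**Figure D2:**
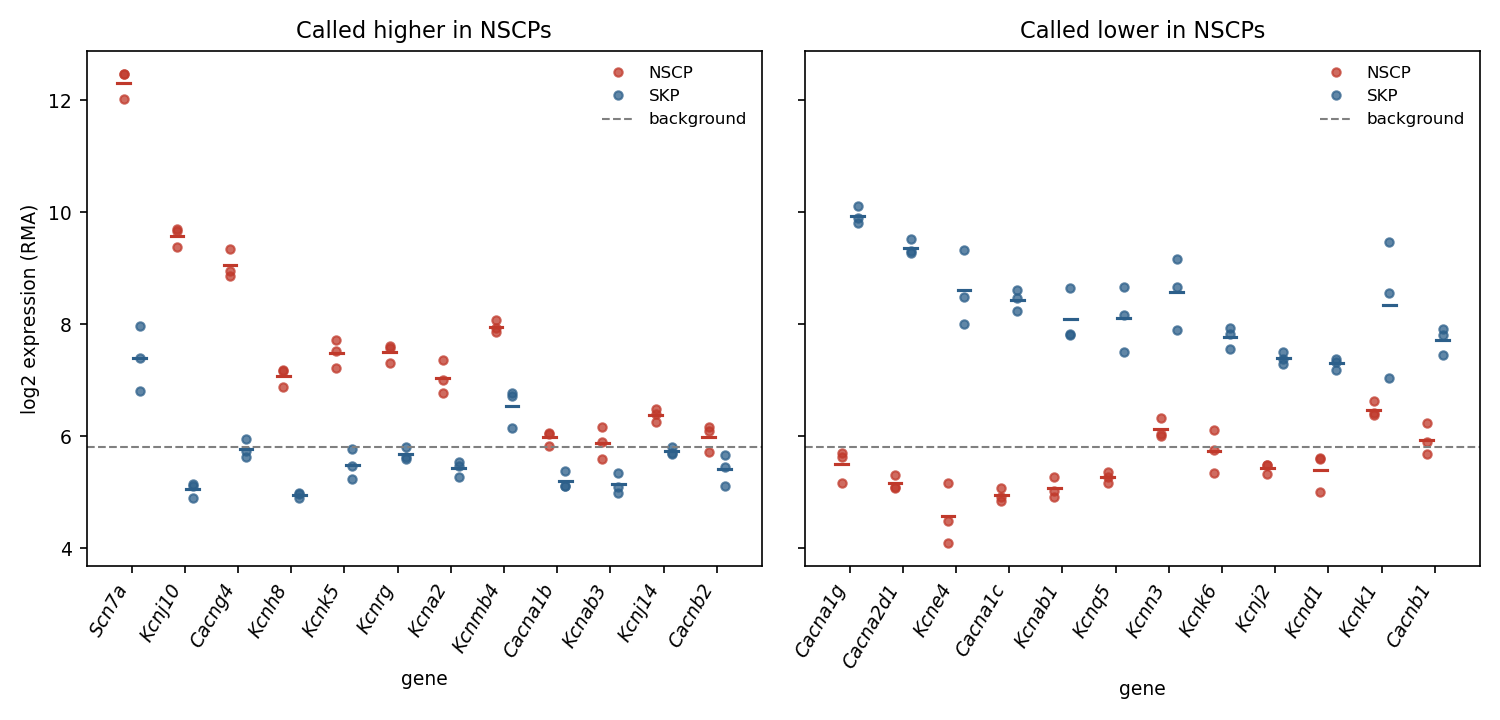
Log2 expression (y axis) on each of the 3 NSCP and 3 SKP arrays (points, with the group mean as a bar) for 12 channel genes in each direction, those with the largest called differences among genes with separate groups and at least 1 group mean above background; the dashed line is the background of 5.80. NSCP arrays of Scn7a lie between 12.01 and 12.46, and SKP arrays of Cacna1g between 9.81 and 10.10.

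The lower genes included Cacna1g, Cacna2d1, Cacna1c and Kcne4. Cacna1g encodes the T-type calcium channel Cav3.1, which opens at low voltage. It was within background in NSCPs, at 5.17, 5.70 and 5.63, against 9.90, 9.81 and 10.10 in SKPs. The groups were far apart, with a difference of -4.44 (SE 0.17, adjusted p = 2.17e-07 by limma). Cacna2d1 encodes the alpha2delta subunit that brings calcium channels to the surface and binds gabapentin. Its values were 5.30, 5.08 and 5.09 in NSCPs, against 9.26, 9.52 and 9.30 in SKPs, and the difference was -4.21 (SE 0.13). Cacna1c encodes the L-type channel Cav1.2, the main calcium entry of heart and smooth muscle. It was at 4.91, 5.07 and 4.85 in NSCPs, against 8.23, 8.61 and 8.46 in SKPs, and the difference was -3.49 (SE 0.14). Kcne4, whose product inhibits several voltage-gated potassium channels, was at 5.15, 4.09 and 4.48 in NSCPs, against 8.01, 9.32 and 8.49 in SKPs. Both groups of Kcne4 spread by more than 1 on the log2 scale, and its difference was -4.03 (SE 0.36). In all of these 4 genes the NSCP means were within background.

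The promoters of a pair from each side are shown as context for these differences. They are the 300 bases of RefSeq (GRCr8) from 250 before to 50 after the annotated start, 5′ to 3′, and 84 of the 122 genes had such an entry. Capitals mark matches, on either strand, to the letters TGACG (the core of a cAMP response element), ACAAAG (SOX factors), CAGCTG (E-box) and TGANTCA (AP-1); TGACG is not contained in the others.
Scn7a (chr3:71846235-71846534, minus strand): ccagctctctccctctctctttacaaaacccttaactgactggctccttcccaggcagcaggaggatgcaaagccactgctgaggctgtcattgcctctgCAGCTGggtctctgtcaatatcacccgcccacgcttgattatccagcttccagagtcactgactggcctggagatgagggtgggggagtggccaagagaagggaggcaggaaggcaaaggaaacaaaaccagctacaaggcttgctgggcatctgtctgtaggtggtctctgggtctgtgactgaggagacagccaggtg
Kcnj10 (chr13:87334260-87334559, plus strand): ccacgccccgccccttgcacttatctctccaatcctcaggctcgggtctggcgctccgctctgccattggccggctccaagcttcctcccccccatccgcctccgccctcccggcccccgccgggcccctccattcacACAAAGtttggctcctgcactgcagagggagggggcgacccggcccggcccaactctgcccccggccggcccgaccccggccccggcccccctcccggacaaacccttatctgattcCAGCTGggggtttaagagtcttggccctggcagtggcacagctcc
Cacna1c (chr4:154051699-154051998, minus strand): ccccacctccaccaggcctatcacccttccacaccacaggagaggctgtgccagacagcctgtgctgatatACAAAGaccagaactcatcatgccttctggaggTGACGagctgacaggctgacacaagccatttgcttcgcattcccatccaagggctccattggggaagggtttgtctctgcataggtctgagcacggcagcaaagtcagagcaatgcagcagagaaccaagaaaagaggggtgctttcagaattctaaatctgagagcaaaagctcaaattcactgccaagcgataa
Kcne4 (chr9:87695798-87696097, plus strand): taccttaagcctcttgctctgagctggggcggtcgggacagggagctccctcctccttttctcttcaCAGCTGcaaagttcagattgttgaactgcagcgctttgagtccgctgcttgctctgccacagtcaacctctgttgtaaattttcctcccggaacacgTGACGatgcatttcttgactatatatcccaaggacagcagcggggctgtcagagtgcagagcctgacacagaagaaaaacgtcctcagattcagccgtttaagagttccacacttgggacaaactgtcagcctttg

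Scn7a held 1 match, an E-box, and Kcnj10 held a SOX match and an E-box. Cacna1c held a SOX match and a response element core, and Kcne4 an E-box and a response element core. These letters are common. The E-box was found in 15.1% of all 33469 promoters, in 25 of the 93 promoters of all channel genes (26.9%), in 6 of 19 promoters of genes called higher in NSCPs and in 8 of 29 of those called lower. ACAAAG was found in 18.8% of all promoters, in 2 of the 19 and in 5 of the 29. TGACG was found in 21.2% of all promoters, in 4 of the 19 and in 6 of the 29. TGANTCA was found in 7.33% of all promoters and in 0 of either set. A match describes the letters only. The 19 and 29 promoters belong to 18 and 24 genes, since some genes have several starts.

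Among voltage-gated potassium channel genes, the Kv1 family had 2 higher and 1 lower among 8. Kcna2, whose channel Kv1.2 lies beside the nodes of myelinated axons, was at 6.99, 6.78 and 7.36 in NSCPs, against 5.54, 5.47 and 5.27 in SKPs. Its SKP arrays were within background, and the difference was 1.62 (SE 0.17). Kcna3, which encodes Kv1.3 of lymphocytes and macrophages, was lower in NSCPs, at 5.65, 5.77 and 6.03 against 7.99, 6.61 and 7.33 in SKPs (-1.49, SE 0.30). The mean of the leukocyte markers in the same 3 SKP arrays was 11.14, 10.12 and 10.43, the same order of arrays. The SKP arrays of Scn7a stood in this order too (7.97, 6.80 and 7.39). Those of Kcnn4, a channel gene of immune cells, did not (6.90, 6.36 and 7.14). Whether leukocytes account for Kcna3 was not tested. Kcna1, of the channel Kv1.1, was not called (adjusted p = 0.095 by limma): it was at 7.61, 7.86 and 7.80 in NSCPs and at 7.66, 9.35 and 8.73 in SKPs. SKP replicate 1 alone lay among the NSCP values, and without it the difference was -1.28 (adjusted p = 0.00123 by limma), while without SKP replicate 2 it was -0.44 (adjusted p = 0.236). With the replicate number as a block Kcna1 passed as well (adjusted p = 0.0467 by limma), as it did with array weights (0.0201).

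Genes of the Kv2, Kv3 and Kv4 families had 3 lower and none higher among 6; at an unadjusted p under 0.05 limma also gave none higher. Kcnd1, of the A-type channel Kv4.1, was at 5.00, 5.61 and 5.59 in NSCPs, against 7.38, 7.33 and 7.18 in SKPs (-1.90, SE 0.18). Kcnd3, of Kv4.3, averaged 5.95 ± 0.43 in NSCPs and 7.68 ± 0.30 in SKPs (SD, 3 arrays each), above background in both. In NSCPs its mean was above the line by 0.15 only, and NSCP replicate 1, at 5.50, was below the line. For both genes the NSCP arrays lay below the SKP arrays. The silent subunit genes, whose products form no channel alone but modify Kv2 channels, had 1 lower and 9 uncalled among 10. Only Kcng1 of these was above background, by 0.12 in NSCPs and 0.14 in SKPs. It averaged 5.91 ± 0.30 in NSCPs and 5.94 ± 0.35 in SKPs (SD, 3 arrays each), and the interval of its difference ran from -0.51 to 0.46.

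The Kcnh family, relatives of the ether-a-go-go channel of flies, had 1 higher and 3 lower among 8. Kcnh8, of the channel Kv12.1, was at 7.18, 6.88 and 7.16 in NSCPs, against 4.99, 4.96 and 4.89 in SKPs. No SKP array was above background, and the difference was 2.13 (SE 0.13, adjusted p = 2.98e-06 by limma). Kcnh1, of a channel studied in dividing cells, was lower by a difference of -0.94, with its NSCP mean within background, and Kcnh3 by -0.58. Among 3 Kcnq genes, which carry slow currents that steady the membrane, Kcnq5 was lower. It was at 5.36, 5.26 and 5.16 in NSCPs, all within background, against 8.16, 7.50 and 8.67 in SKPs (-2.85, SE 0.26).

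Inward rectifiers showed 3 higher and 1 lower genes among 15, and 10 of the 15 were within background in both groups. Kcnj5, called higher, was one of these, at 4.29 in NSCPs and 3.76 in SKPs, and its groups overlapped. Beside Kcnj10, Kcnj14 (Kir2.4) was higher in NSCPs, at 6.38 ± 0.11 against 5.73 ± 0.06 in SKPs (SD, 3 arrays each). The opposite was seen for Kcnj2, of the classical inward rectifier Kir2.1 of muscle and other excitable cells. It was at 5.48, 5.48 and 5.32 in NSCPs, against 7.29, 7.38 and 7.49 in SKPs, a difference of -1.96 (SE 0.12). Kcnj10 was thus above background in NSCPs alone and Kcnj2 in SKPs alone. Kcnj12 (Kir2.2), above background in both groups at 6.59 ± 0.12 in NSCPs and 6.22 ± 0.26 in SKPs (SD, 3 arrays each), was not called (adjusted p = 0.0873 by limma). Its difference was 0.37. It passed without SKP replicate 3, at 0.50 (adjusted p = 0.0442 by limma), while without SKP replicate 1 it was 0.24 (adjusted p = 0.267). It also passed with renewed quantile normalization (adjusted p = 0.0244) and with median centring (adjusted p = 0.0445).

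Two-pore-domain genes, which carry background potassium currents, had 2 higher and 4 lower among 13, and 10 of the 13 were above background in at least 1 group. Of the higher genes Kcnk10 was within background in both groups, at 5.42 in NSCPs and 4.55 in SKPs. Kcnk5 encodes TASK-2, which closes in acid. It was at 7.21, 7.72 and 7.52 in NSCPs, against 5.24, 5.47 and 5.76 in SKPs (1.99, SE 0.18). Every SKP array was within background. Kcnk6, of TWIK-2, was at 5.76, 6.10 and 5.34 in NSCPs, against 7.94, 7.82 and 7.55 in SKPs (-2.04, SE 0.20). A second probe set of Kcnk6 had a smaller difference of -0.66 in the same direction (SE 0.17, adjusted p = 0.0269 over all probe sets by limma). Kcnk1, of TWIK-1, was at 6.63, 6.37 and 6.42 in NSCPs, against 7.03, 9.47 and 8.55 in SKPs. The spread of 2.44 between SKP cultures was the widest of any channel gene in either group, and the difference was -1.87 (SE 0.50, adjusted p = 0.0158 by limma). Without NSCP replicate 2 the adjusted p of Kcnk1 was 0.0672. Kcnk4, of the stretch-activated channel TRAAK, averaged 6.03 ± 0.31 in NSCPs and 6.95 ± 0.34 in SKPs (SD, 3 arrays each), a difference of -0.92.

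Among 7 genes of calcium- or sodium-activated potassium channels 1 was higher and 1 lower. The higher gene was Kcnt2, within background in both groups at 3.70 in NSCPs and 3.30 in SKPs. The lower gene was Kcnn3, of the small-conductance channel SK3. It was at 6.01, 6.32 and 6.03 in NSCPs, against 9.16, 7.90 and 8.66 in SKPs (-2.46, SE 0.28), above background in both groups. As for Kcna3, SKP replicate 1 was highest and replicate 2 lowest. Kcnn4, of the intermediate-conductance channel of blood and immune cells, was not called, at 6.34 ± 0.20 in NSCPs and 6.80 ± 0.40 in SKPs (SD, 3 arrays each). Its difference was -0.46. It passed without SKP replicate 2, at -0.68 (adjusted p = 0.0121 by limma), while without SKP replicate 3 it was -0.29 (adjusted p = 0.321). With array weights Kcnn4 passed (adjusted p = 0.0157).

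Auxiliary potassium channel genes had 4 higher and 6 lower among 16. Kcnmb4, of the beta4 subunit that slows the large-conductance BK channel, was at 7.93, 8.07 and 7.85 in NSCPs, against 6.77, 6.14 and 6.72 in SKPs (1.41, SE 0.18). The pore gene of that channel, Kcnma1, was within background in both groups, at 4.64 ± 0.19 in NSCPs and 5.21 ± 0.49 in SKPs (SD, 3 arrays each). The beta subunit genes of Kv1 channels went apart. Kcnab1 was at 5.03, 4.92 and 5.28 in NSCPs, against 7.80, 8.64 and 7.82 in SKPs (-3.02, SE 0.23). Kcnab2 differed by -0.74 and was above background in both, while Kcnab3 was higher by 0.74 with its SKP mean within background. The NSCP mean of Kcnab3, 5.88, was just above the line. It was under 6.03, the 95th percentile of the olfactory receptor genes in NSCPs alone. Kcnip3, which encodes a calcium sensor that binds Kv4 channels and also DNA, averaged 7.87 ± 0.23 in NSCPs and 9.56 ± 0.11 in SKPs (SD, 3 arrays each), a difference of -1.70. Kcnrg was higher, at 7.61, 7.31 and 7.57 in NSCPs against 5.59, 5.63 and 5.81 in SKPs (1.82, SE 0.13).

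**Figure D3:**
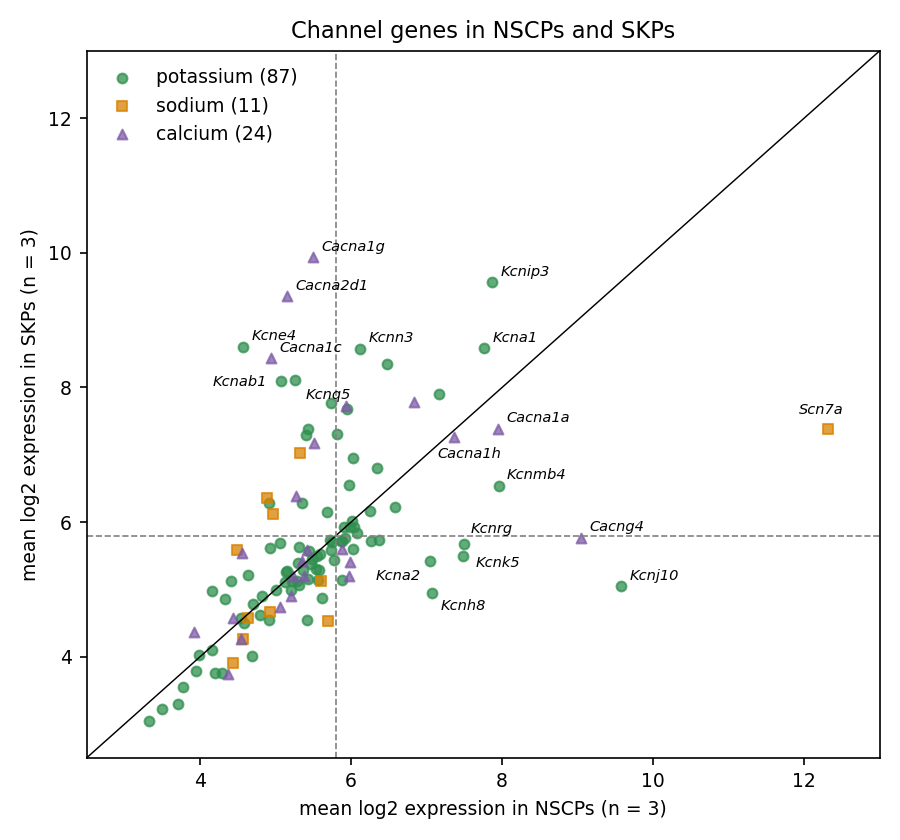
Mean log2 expression of the 122 channel genes over 3 NSCP arrays (x axis) and 3 SKP arrays (y axis), by ion (marker and colour). The diagonal is equal expression, dashed lines mark the background of 5.80, and some of the genes named in the text are labelled. Most points lie near the diagonal below background, with Scn7a, Kcnj10 and Cacng4 far to the NSCP side and Cacna1g, Cacna2d1 and Kcne4 far to the SKP side.

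Among the 8 sodium channel alpha genes Scn7a and Scn8a were above background, Scn8a in SKPs alone. Scn8a, of Nav1.6, the channel of nodes of Ranvier, was at 5.07, 4.74 and 5.08 in NSCPs, against 5.71, 6.59 and 6.07 in SKPs (-1.16, SE 0.22). The other 6 measured alpha genes were within background in both groups, although 4 of them were called. Of the 3 beta subunits, which anchor and tune the pores, 2 were lower in NSCPs. Scn4b was at 5.15, 5.55 and 5.26 in NSCPs, against 6.77 to 7.28 in the 3 SKP arrays (-1.70, SE 0.17). Scn2b was at 4.95, 4.86 and 4.86 in NSCPs, against 6.11, 6.71 and 6.27 in SKPs (-1.47, SE 0.16). The NSCP means of both were within background, and the third measured beta gene, Scn3b, was within background in both groups.

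The calcium channel pore genes had 2 higher and 4 lower among 9. The T-type genes differed among themselves. Beside the lower Cacna1g and Cacna1i (-1.12, SE 0.19), Cacna1h was at 7.32, 7.47 and 7.31 in NSCPs and 6.97, 7.30 and 7.54 in SKPs. The Cacna1h groups overlapped, and the interval of the difference ran from -0.27 to 0.46. Cacna1b, of the N-type channel of nerve endings, was higher by 0.78 (SE 0.13) with its SKP mean within background. Its NSCP mean of 5.97 was just above the line. It was under 6.03, the 95th percentile of the olfactory receptor genes in NSCPs alone. Cacna1a, of the P/Q-type channel, was above background in both groups, at 7.95 ± 0.04 in NSCPs and 7.39 ± 0.37 in SKPs (SD, 3 arrays each). Its difference of 0.56 passed narrowly (adjusted p = 0.0355 by limma). Without any one array other than SKP replicate 3 the adjusted p lay between 0.0757 and 0.0905.

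Of the 4 alpha2delta genes Cacna2d1 alone was called. All 4 genes of the cytoplasmic beta subunits, which bring calcium channel pores to the membrane, were called, where 43.7% of all genes were. Among these, Cacnb4 was lower with both group means within background, at 3.93 in NSCPs and 4.37 in SKPs. Cacnb1 was at 5.89, 6.23 and 5.68 in NSCPs, against 7.44, 7.91 and 7.80 in SKPs (-1.78, SE 0.18). Cacnb3 averaged 6.83 ± 0.06 in NSCPs and 7.79 ± 0.06 in SKPs (SD, 3 arrays each), a difference of -0.96. Cacnb2 was higher, at 5.98 ± 0.24 in NSCPs against 5.41 ± 0.29 in SKPs (SD, 3 arrays each), with the SKP mean within background. The NSCP mean of Cacnb2 was under 6.03, the 95th percentile of the olfactory receptor genes in NSCPs alone. Its difference of 0.58 (adjusted p = 0.0319 by limma) did not pass without NSCP replicate 1 (0.0998), NSCP replicate 3 (0.0965), SKP replicate 1 (0.0574) or SKP replicate 2 (0.0875). Of the 7 gamma genes Cacng4 was higher and Cacng7 lower among those above background. Cacng7 was at 5.81, 5.52 and 5.19 in NSCPs, against 6.77, 7.53 and 7.24 in SKPs (-1.67, SE 0.22).

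Several channel genes lie next to each other on the chromosome, and a selection of these pairs is named here, not all of them. In RefSeq (assembly GRCr8, used for gene order only) 15 neighbouring pairs were both measured. In 5 pairs both genes were called in the same direction, in 1 in opposite directions, in 5 a single gene was called, and in 4 neither. Of all genes 43.7% were called, and some genes belong to more than 1 pair. Whether neighbours are called together more often than other genes was not tested. Kcna3 and Kcna2, side by side, were the opposite pair, at -1.49 and 1.62, and the next gene, Kcna10, differed by 0.74 within background. Kcnj10 was higher by 4.53 while its neighbour Kcnj9 differed by 0.15 (adjusted p = 0.384 by limma). Cacng4 lies between Cacng1 (-0.08) and Cacng5 (0.63), both within background in both groups. In the row Scn1a, Scn9a and Scn7a the differences were 0.53, 1.17 and 4.92, the first of these within background in both groups, as was the second. Scn1a did not pass without NSCP replicate 3 (adjusted p = 0.0829), SKP replicate 2 (0.0713) or SKP replicate 3 (0.0712). Scn2b and Scn4b, also side by side, were both lower.

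**Figure D4:**
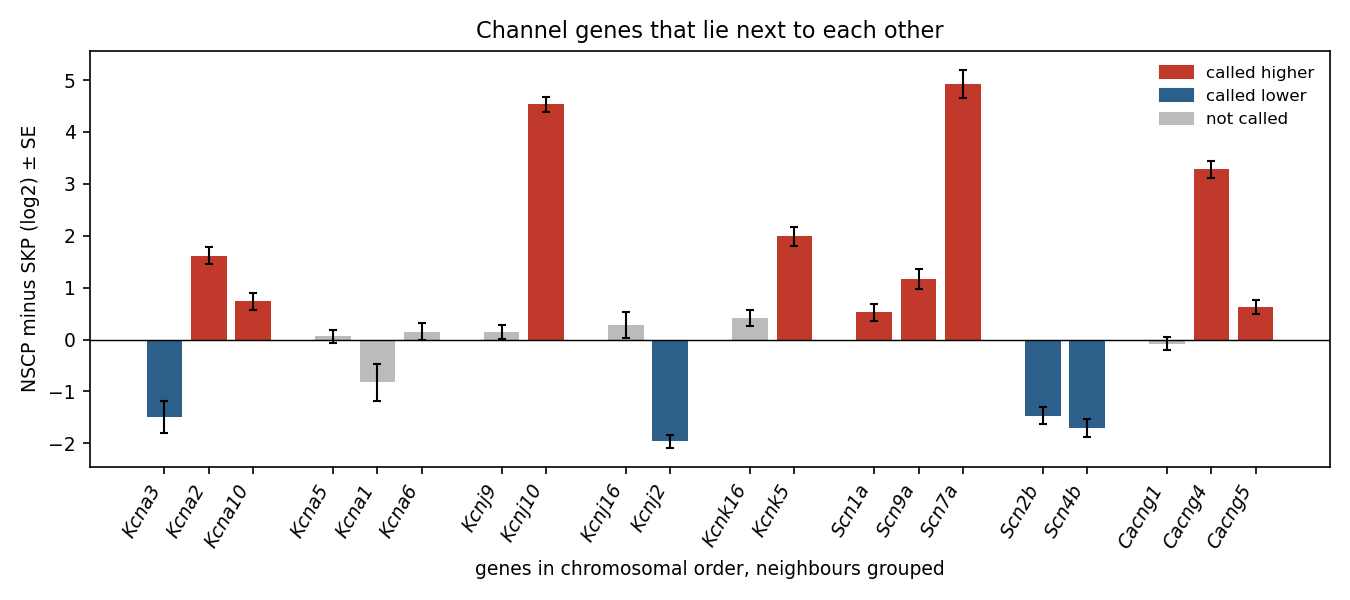
Log2 difference NSCP minus SKP with the SE of the fit (y axis) for channel genes grouped with their chromosomal neighbours (x axis). Colours give the call. The measured pairs Kcnip1 and Kcnmb1, Kcnj6 and Kcnj15, and Kcnj5 and Kcnj1 are not drawn. Kcnj10 at 4.53 and Cacng4 at 3.28 stand beside neighbours between -0.08 and 0.63, and Kcna3 and Kcna2 point in opposite directions.

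The spread between cultures was wider on the SKP side for some channel genes. A range of at least 1 on the log2 scale was found for 1 channel gene among the NSCP arrays and for 9 among the SKP arrays. The median range was 0.33 in NSCPs and 0.38 in SKPs. No such count was made over all genes, so this spread is not shown to be particular to channel genes. Kcnk1, Kcna1, Kcna3, Kcne4 and Kcnn3 had the widest SKP ranges. In Kcnk1, Kcna1 and Kcne4 SKP replicate 1 was lowest and replicate 2 highest, and in Kcna3 and Kcnn3 the reverse.

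Genes whose products anchor or modulate these channels were read from a list of 50, of which 47 were measured. In NSCPs 12 were higher and 11 lower, 48.9% called against 43.7% of all genes. Ank3, of ankyrin-G, which holds sodium and Kcnq channels at the nodes of axons, averaged 10.55 ± 0.05 in NSCPs and 6.54 ± 0.12 in SKPs (SD, 3 arrays each), a difference of 4.01. Lgi4, of a secreted protein of Schwann cells needed for myelination, was higher by 4.14 (SE 0.16), and its relative Lgi1, of a secreted protein bound to Kv1 channel complexes in brain, by 2.61 with the SKP mean within background. Of the paranodal complex on the axon side, Cntn1 and Cntnap1 were lower. Cntn1 averaged 5.19 ± 0.08 in NSCPs and 8.70 ± 0.97 in SKPs (SD, 3 arrays each), a difference of -3.51, and Cntnap1 differed by -2.15. Epb41l3, of the same list, was higher in NSCPs, at 10.14 ± 0.09 against 8.24 ± 0.36 in SKPs (SD, 3 arrays each), a difference of 1.90. Stac, of an adaptor of L-type calcium channels, differed by -2.18. The NSCP means of Cntn1, Cntnap1 and Stac were within background. Rest, chosen after its values were seen, encodes the repressor of many neuronal channel genes. It averaged 9.80 ± 0.16 in NSCPs and 9.85 ± 0.02 in SKPs (SD, 3 arrays each), and the interval of its difference ran from -0.33 to 0.24.

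**Figure D5:**
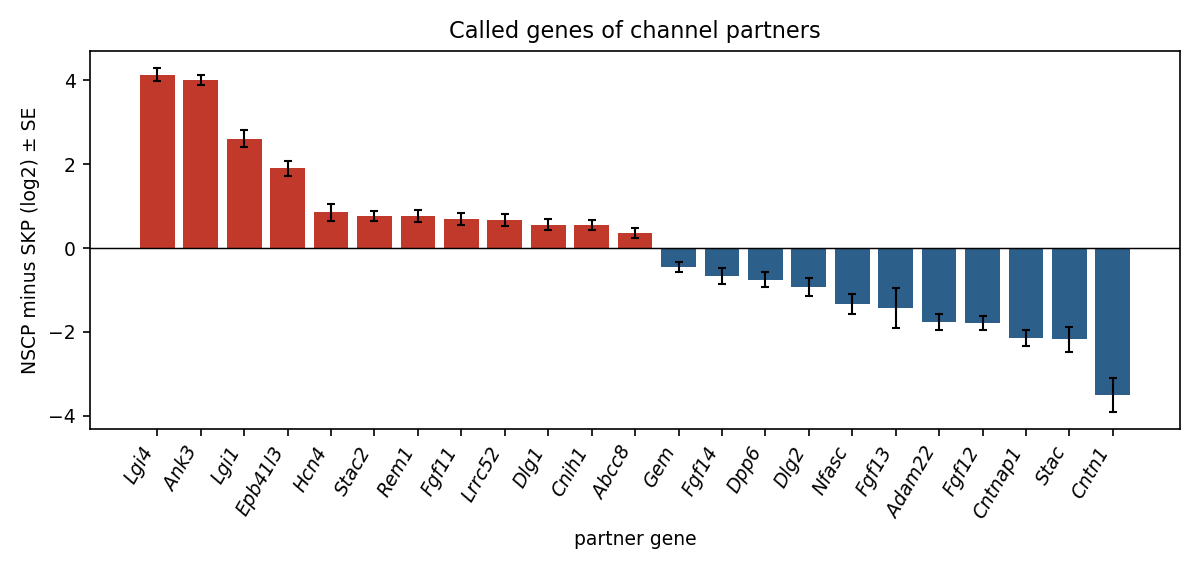
Difference NSCP minus SKP on the log2 scale with the SE of the fit (y axis) for the 23 called genes of channel partners (x axis), of 47 measured; red bars are higher and blue bars lower in NSCPs. Lgi4 (4.14) and Ank3 (4.01) are among the 12 genes above 0, and Cntn1 (-3.51), within background in NSCPs, is among the 11 below.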

How the data were processed

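RNA of 3 NSCP and 3 SKP cultures was measured on expression arrays, with cDNA made from 400 ng of total RNA per the labels' protocols. The authors deposited log2 values, 1 for every array and probe set, computed with oligo and RMA, which corrects background, equalises the quantiles of arrays and summarises probes, per the submitters' processing notes; versions and a genome build are not stated in the sources used here. Quantile normalization would hide a shift of all genes in 1 group. Of 36685 probe sets 18511 had 1 gene symbol in the platform's table, 575 had several and 17599 had none here. Each gene was read from its brightest probe set by 6-array mean, without further normalization or filter. All 122 channel genes had the same symbol in RefSeq by Entrez ID. limma 3.58.1 in R 4.3.3 (lmFit, eBayes, 2-sided) compared the groups and was tested on simulated data. Figures used matplotlib 3.10.9 under Python 3.11.15.

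The members and lists were chosen with earlier results of these data known. Genes were named by a rule. It took the 12 largest called, non-overlapping differences in each direction with a group mean above background. It also took up to 3 called genes and 2 genes above background in both groups per family, and up to 6 called partner genes. Chromosomal neighbours were outside this rule, and a selection of pairs was named rather than every pair. Kcnma1, Scn3b, Kcnt2, Kcnk10, Kcnj5 and Epb41l3, like the genes near the background line, were named for comparison after their values were seen. The background was to come from all symbols starting with Olr; Olr1 was removed after the files were read. The number of arrays, 3 per group, limits the precision. Alternatives covered each array left out, the replicate number as a block, scaling, filters on dim genes, probe set choice, the prior, array weights, thresholds and other background lines.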

Additional observations from a re-analysis of the deposited data

How the results depend on the processing

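Counts of called channel genes were 23 higher and 34 lower in NSCPs. Over fits that each left out 1 array they ranged from 17 to 23 higher and from 32 to 36 lower; potassium genes from 12 to 16 and from 20 to 24, sodium genes from 2 to 5 and at 4, and calcium genes from 3 to 5 and from 8 to 9. Sodium genes called higher were 2, and calcium genes 3, without NSCP replicate 3, and calcium genes were 3 without SKP replicate 1. No pairing by replicate number was seen: same-numbered deviations from the group means correlated at 0.028 to 0.050 across genes. Whether same-numbered cultures shared a source or a batch was not tested. With the replicate block 23 channel genes were higher and 34 lower, and of the 64 genes followed singly through the alternatives Kcna1 alone changed its call.

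Against a 2-fold change (limma's treat) 7 channel genes were higher and 13 lower, 5 and 8 of them potassium, 1 and 1 sodium, and 1 and 4 calcium genes. Shares of all genes under this and the following fits are not given here. These counts therefore do not set channel genes against all genes. With the fit limited to genes above background in a group, which tests fewer genes, 15 channel genes and 1 sodium gene were higher. Sodium genes called higher were 2 with the filter at the median of all probe sets, with all probe sets in the fit and at an adjusted p under 0.01, and calcium genes called higher were 3 in the last of these and with all probe sets. Median centring and array weights each gave 8 calcium genes higher; the cause was not tested. Median centring moved the median difference of all genes to 0.21, against 0.14 as deposited. None of the called genes among those 64 reversed under these fits.

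The number of channel genes above background, 39 in NSCPs and 40 in SKPs, ranged from 35 to 43 and from 39 to 44 with 1 array left out. It was 67 and 69 with the 90th percentile of the receptor means, 14 and 25 with the 99th, and 13 and 24 with the highest mean. With a line for each group, 6.03 in NSCPs and 5.64 in SKPs, it was 24 in NSCPs and 50 in SKPs, so the near equality of the groups rests on the shared line. With Olr1 among the background genes, an alternative chosen after seeing the data, it was 20 in NSCPs. For all of these other lines the share of all genes is not given here. The values carry no detection calls, so levels near the line cannot be told from background.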
